A study of Mus musculus with 9 samples.

Results

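The kinesin, centrosome, gamma-tubulin and augmin genes of the mouse mid-foregut were followed from 16-20 to 26-30 somites. Members were genes whose only symbol in the platform's probe-to-gene table was that of a kinesin (Kif or Kifc), a CEP protein, a centrin (Cetn), an augmin subunit (Haus) or a gamma-tubulin complex protein (Tubg or Tubgcp), together with Plk4. Pcnt was sought as well, and the table paired no probe set with it alone. The rule gave 64 genes out of the 12393 on the array, with 115 probe sets among them, and each gene was represented by the probe set with the highest mean. A filter on low signal left 8675 genes for testing, of which 50 were members.

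The tissue was the mid-foregut of wild type embryos, cut out between the pharyngeal arches and the liver after the neural tube and heart had been dissected away. The 3 groups were embryos with 16-20 somites (embryonic day 8.5), 21-25 somites (day 9.0) and 26-30 somites (day 9.5), somites being the blocks of mesoderm that are added as the body lengthens. Each group had 3 biological replicates, each a pool of 5 to 10 foreguts on 1 Affymetrix array after amplification of the RNA, and no pool received a treatment. Signals are the deposited intensities on a linear scale, and differences between stages are given on the log2 scale with the SE of the limma fit, after a pseudocount of 26.2 was added to each signal, a scale that understates the difference of dim genes.

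Microtubules grow from gamma-tubulin ring complexes, which gather around the centrioles of the centrosome, and augmin docks further ring complexes on the sides of spindle microtubules, so that the spindle fills with branches. Kinesins are the motors that walk along microtubules or take them apart. Some build the mitotic spindle and close the cleavage furrow, while others carry vesicles, mitochondria and the building material of the primary cilium, which grows from the older centriole and receives hedgehog signals in the foregut wall.

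In a bulk tissue, fewer cells of a type and less RNA per cell cannot be told apart. The tissue labels were compared with marker genes. Of 12 foregut endoderm markers on the array 10 passed the filter, among them not Shh and Nkx2-1, whose means were 34.6 and 14.3, and of 11 gut mesenchyme markers 8 passed. Summed hepatic marker signal was 34816.2 in 16-20 somites replicate 2 against 2441.1 and 4447.4 in the other arrays of that stage, and summed cardiac marker signal was 18538.5 against 3327.3 and 4302.2. Over the whole interval 8 of 8 mesenchyme markers tested were higher at 26-30 somites, with a median difference of 0.74. Of them 5 had an unadjusted p under 0.05 in limma. Higher too were 8 of 8 neuron markers (median 0.29) and 4 of 4 neural crest markers (median 0.60), with 1 of each at an unadjusted p under 0.05 in limma. Lower, by contrast, were 9 of 9 cardiac markers (median -0.725) and 6 of 6 hepatic markers (median -1.17), with 2 of each at an unadjusted p under 0.05 in limma. Of the endoderm markers 6 of 10 were higher, and of the erythroid markers 4 of 7. The neural crest markers summed to 611.3 to 1274.5, 1089.1 to 1897.9 and 2168.1 to 2504.5 at the 3 stages in order. The mesenchyme markers summed to 10425.1 to 12398.3, 12775.6 to 20436.2 and 13820.7 to 17652.9 at the 3 stages in order. The highest of these sums, 20436.2, was on 21-25 somites replicate 1, which also had the lowest erythroid sum, 18103.0 against 20818.2 to 57836.6 on the other arrays. The brightest probe set reached only 27479.8 to 32583.5 on 3 arrays, against 43791.6 to 61749.1 on the other 6. The former are called narrow-range arrays: replicate 1 of 21-25 somites, and replicates 1 and 2 of 26-30 somites. None of the 16-20 somite arrays is among them. A fit without them keeps replicates 2 and 3 of 21-25 somites and only replicate 3 of 26-30 somites. Its values for the second step, the whole interval and the difference between steps thus rest on an unreplicated last stage. The part of the narrow-range arrays and of the marker signals in the values given here was not tested, except where a value without an array is stated.

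Promoters of spindle motors are shown because these genes had the highest first-step median of the role groups. Those of Kif11, Kif22, Kif23 and Kif4 were picked from the 6 that hold both motifs described here, after the motif search, and 1 of the 2 windows of Kif2a is shown beside them as a promoter that holds neither. That of Cetn3 is shown because its signal differed most at the second step. Sequences are RefSeq's, build GRCm38.p6, from 250 bases before to 50 after the start site, printed in the direction of the gene. The windows are chr19:37376132-37376431 (plus strand) for Kif11, chr7:127042371-127042670 (minus strand) for Kif22, chr9:61946750-61947049 (minus strand) for Kif23, chrX:100625815-100626114 (plus strand) for Kif4, chr13:107022306-107022605 (minus strand) for Kif2a and chr13:81782997-81783296 (plus strand) for Cetn3. Capitals mark each match, on either strand, to TTTGAA, the core of the cell cycle genes homology region, and to CCAAT, the box bound by NF-Y.
Kif11: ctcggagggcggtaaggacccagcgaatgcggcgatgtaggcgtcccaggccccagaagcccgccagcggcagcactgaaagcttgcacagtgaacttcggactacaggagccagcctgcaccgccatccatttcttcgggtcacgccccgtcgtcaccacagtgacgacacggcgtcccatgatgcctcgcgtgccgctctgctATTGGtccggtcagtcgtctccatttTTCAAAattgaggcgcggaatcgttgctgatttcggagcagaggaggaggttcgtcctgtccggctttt
Kif22: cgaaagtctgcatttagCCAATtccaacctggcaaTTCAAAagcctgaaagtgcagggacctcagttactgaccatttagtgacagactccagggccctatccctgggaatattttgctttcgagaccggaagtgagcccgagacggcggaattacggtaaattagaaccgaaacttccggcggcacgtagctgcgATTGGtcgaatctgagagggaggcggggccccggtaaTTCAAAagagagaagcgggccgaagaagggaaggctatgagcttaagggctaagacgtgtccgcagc
Kif23: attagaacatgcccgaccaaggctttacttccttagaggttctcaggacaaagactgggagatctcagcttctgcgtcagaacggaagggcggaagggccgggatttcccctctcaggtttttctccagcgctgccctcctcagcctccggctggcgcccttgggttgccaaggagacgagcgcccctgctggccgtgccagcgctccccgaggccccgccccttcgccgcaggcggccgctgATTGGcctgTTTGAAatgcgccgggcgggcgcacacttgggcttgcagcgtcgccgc
Kif4: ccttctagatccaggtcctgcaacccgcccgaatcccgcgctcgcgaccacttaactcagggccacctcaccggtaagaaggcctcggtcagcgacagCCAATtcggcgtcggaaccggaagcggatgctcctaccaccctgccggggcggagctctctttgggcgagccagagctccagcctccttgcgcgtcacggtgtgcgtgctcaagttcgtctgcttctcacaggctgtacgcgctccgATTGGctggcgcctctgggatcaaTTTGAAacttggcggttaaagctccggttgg
Kif2a: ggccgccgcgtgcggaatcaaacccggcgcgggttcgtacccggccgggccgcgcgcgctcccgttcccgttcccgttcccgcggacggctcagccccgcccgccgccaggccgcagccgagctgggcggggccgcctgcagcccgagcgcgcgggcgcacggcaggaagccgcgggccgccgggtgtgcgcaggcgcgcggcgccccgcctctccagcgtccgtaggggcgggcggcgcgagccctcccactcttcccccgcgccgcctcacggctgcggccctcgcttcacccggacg
Cetn3: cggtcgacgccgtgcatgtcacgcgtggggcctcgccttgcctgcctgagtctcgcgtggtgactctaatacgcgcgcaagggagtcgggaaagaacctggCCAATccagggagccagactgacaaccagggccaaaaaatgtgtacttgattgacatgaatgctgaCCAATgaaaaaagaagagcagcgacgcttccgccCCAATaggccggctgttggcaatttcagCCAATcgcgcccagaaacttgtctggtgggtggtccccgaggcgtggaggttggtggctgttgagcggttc

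In Kif11, Kif22, Kif23 and Kif4 a CCAAT match was followed downstream by a TTTGAA match, at -45 and -19 from the start site in Kif11, at -54 and -17 in Kif22, at -7 and 3 in Kif23 and at -5 and 20 in Kif4. Kif22 held a further such couple at -233 and -215, and Kif4 a further CCAAT match at -152. The promoter of Cetn3 held 4 CCAAT matches, at -149, -83, -49 and -21, and 0 TTTGAA matches. Of 64 members 52 had a promoter in the RefSeq table, with 61 windows in all. For the spindle kinesins there were 10 windows from 9 genes, and Kif20a had no window. Both motifs were present in 6 of these 10 windows (60.0%). The share was 14.8% of all members' windows, those of spindle kinesins included, and 6.95% of all 32851 windows. Among the 6 are the windows of Kifc1 and Kifc5b, which are nearly alike in sequence over most of their length. Kifc5b was left out by the signal filter. Both windows of Kif2a and that of Kif18a held 0 matches to either motif, and that of Kif2c held the first motif only. Counted with or without the CCAAT box, the TTTGAA motif was found in 7 of these 10 windows, in 1 of 16 windows of the transport kinesins, in 0 of 8 windows of augmin genes and in 17.9% of all windows. Such a match describes the letters of a window, and neither motif overlaps the other.

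Between 16-20 and 21-25 somites, 12 of the 50 members tested had an unadjusted p under 0.05 in limma (24.0%), against 11.1% of all genes tested. Of these 8 were higher and 4 lower at 21-25 somites, where 5.68% and 5.38% of all genes were. At the second step, to 26-30 somites, 3 of 50 members (6.0%) did so against 4.07% of all genes. The 3 were lower at the later stage, where 2.05% of all genes were lower and 2.02% higher. Over the whole interval 7 members (14%) did, against 11.1% of all genes, with 3 higher (6.29% of all genes) and 4 lower (4.85%). Cep295nl, which passed the filter only through its 16-20 somite arrays, is among the lower members at the first step and over the whole interval. Cep295nl is so too where arrays are compared without a model. Cep290, which passed the filter only through its 21-25 somite arrays, is among the higher members at the first step in both kinds of comparison. After Benjamini-Hochberg adjustment 0 members and 0 of all genes passed 0.05 in limma in any of these comparisons, and the smallest adjusted p among members was 0.317 for the first step, 0.975 for the second and 0.254 for the whole interval. By this measure the members' share at the second step and over the whole interval was near that of all genes.

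Arrays were also compared without a model. Here the members' shares at the second step and over the whole interval lay further above those of all genes, but not at the first step. The 3 arrays of 1 stage lay wholly above or below those of the other in 13 members at the first step (26.0%, against 14.2% of all genes), in 8 at the second (16.0%, against 9.35%) and in 16 over the whole interval (32%, against 21.3%). At the first step 8 of the 13 were higher and 5 lower, where 6.94% and 7.30% of all genes were. At the second step 1 of the 8 was higher and 7 were lower, against 4.51% and 4.84%. Over the whole interval 8 were higher and 8 lower, against 11.2% and 10.2%. The median member difference was 0.13 for the first step, -0.06 for the second and 0.04 for the whole interval, where the medians of all genes tested were 0.00, 0.01 and 0.01. The member median on each array stood at 0.31 on 21-25 somites replicate 1 and between -0.08 and 0.08 on the other 8 arrays, in log2 units from each gene's mean. Without the narrow-range arrays, 7 members rather than 12 had an unadjusted p under 0.05 in limma at the first step (14%, against 5.90% of all genes). With the probe sets of each gene averaged, 7 of 52 members did (13.5%, against 9.75% of all genes).

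**Figure D1:**
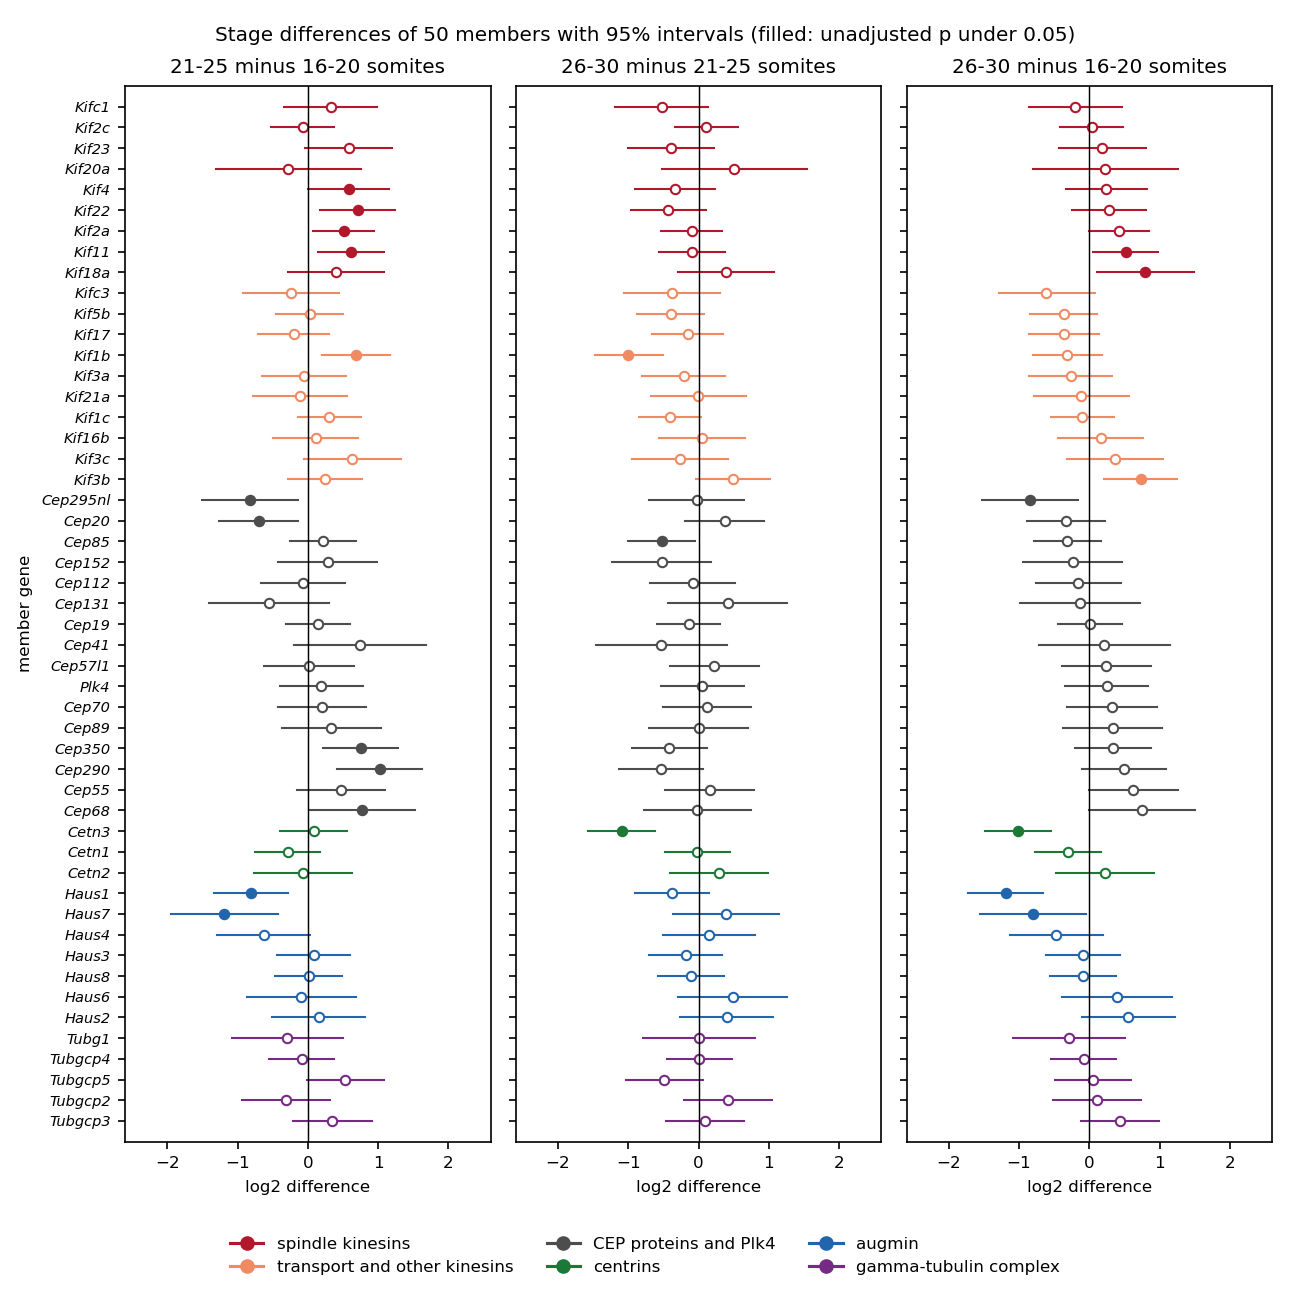
Log2 difference (horizontal axis) of each of the 50 members tested (rows, coloured by role) at the first step, the second step and over the whole interval (panels), with lines for the 95% interval of the limma fit and filled points for an unadjusted p under 0.05. Filled points number 12, 3 and 7 in the panels from left to right; Haus1 lies left of 0 in all of them, and Cetn3 and Kif1b lie farthest left at the second step.

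A fit that weights arrays by their fit to the model put 4 of the 50 members under an adjusted p of 0.05 in limma over the whole interval, where 731 of all genes (8.43%) were. The members' share was near that of all genes. These were Haus1 (-1.22, adjusted p = 0.00955), Cetn3 (-1.06, adjusted p = 0.0126), Kif18a (1.03, adjusted p = 0.0228) and Cep68 (1.04, adjusted p = 0.0373), whose other probe set above the filter had the opposite sign in the unweighted fit (-0.07). At the second step it put Cetn3 alone among members there (-1.15, adjusted p = 0.0337), with 29 of all genes (0.334%). The weights ran from 0.335 on 21-25 somites replicate 2 to 3.38 on 26-30 somites replicate 1, which is a narrow-range array. On that array Kif18a (589.5, against 531.5 and 338.0) and Cep68 (988.0, against 534.2 and 513.2) had their highest signals of the stage. Cetn3 had its lowest there (687.2, against 737.3 and 992.8), and Haus1 lay between the others (844.0, against 756.8 and 1148.5). Without weights 0 genes passed.

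Among the 8 augmin subunits, Haus1 had the smallest p over the whole interval of any member. Haus1 is a coiled-coil subunit of the complex. Its signal was 1962.0, 2535.7 and 1839.5 at 16-20 somites, 937.2, 1370.5 and 1286.0 at 21-25 somites and 844.0, 756.8 and 1148.5 at 26-30 somites. The 16-20 somite arrays lay above the other 6 without overlap, and the later stages overlapped. The difference was -0.81 ± 0.24 at the first step (unadjusted p = 0.00605, adjusted p = 0.324 in limma), -0.38 ± 0.24 at the second (unadjusted p = 0.145) and -1.19 ± 0.24 over the whole interval (unadjusted p = 0.000366, adjusted p = 0.254), with a 95% interval of -1.72 to -0.66. Without 16-20 somites replicate 2, the array with the large hepatic and cardiac marker signals, the whole difference was -1.05. Without the narrow-range arrays, a fit that keeps only replicate 3 at 26-30 somites, it was -0.85.

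Haus7 gave signals of 409.9, 520.8 and 309.3, then 137.7, 102.3 and 294.0, then 217.9, 160.0 and 310.5 at the 3 stages in order. The first 2 stages did not overlap, by a narrow margin between 294.0 and 309.3, and the last stage overlapped both. Its difference was -1.19 ± 0.35 at the first step (unadjusted p = 0.00506, adjusted p = 0.317 in limma) and 0.39 ± 0.35 at the second (unadjusted p = 0.28). The second step exceeded the first by 1.58 ± 0.60 (unadjusted p = 0.0221, adjusted p = 0.756 in limma), and by 1.03 (unadjusted p = 0.122) without 21-25 somites replicate 2. Over the whole interval the difference was -0.80 ± 0.35 (unadjusted p = 0.0413, adjusted p = 0.431 in limma). Without the narrow-range arrays, with only replicate 3 left at 26-30 somites, it was -0.36. With array weights the first step of Haus7 was -0.55 (unadjusted p = 0.0878) and the steps differed by 0.35 (unadjusted p = 0.487).

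The other augmin subunits had an unadjusted p over 0.05 in limma in each comparison. Haus4 had a whole difference of -0.47 ± 0.30, and its 26-30 somite arrays, 203.0, 210.4 and 170.2, lay below the 211.0, 326.3 and 313.4 of 16-20 somites. Haus2, by contrast, had 0.56 ± 0.30, with 264.0, 448.2 and 231.9 at the last stage above 221.7, 229.8 and 150.2 at the first. Haus6 had 0.39 ± 0.36, while Haus3 (-0.10 ± 0.24) and Haus8 (-0.09 ± 0.22) were close to 0. Haus5 was left out by the filter. Of the 7 subunits tested, 2 had a positive and 5 a negative whole difference, with a median of -0.10, which became 0.09 without the narrow-range arrays. On 21-25 somites replicate 2 the augmin median stood at -0.56, and it lay between -0.14 and 0.20 on the other 8 arrays.

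**Figure D2:**
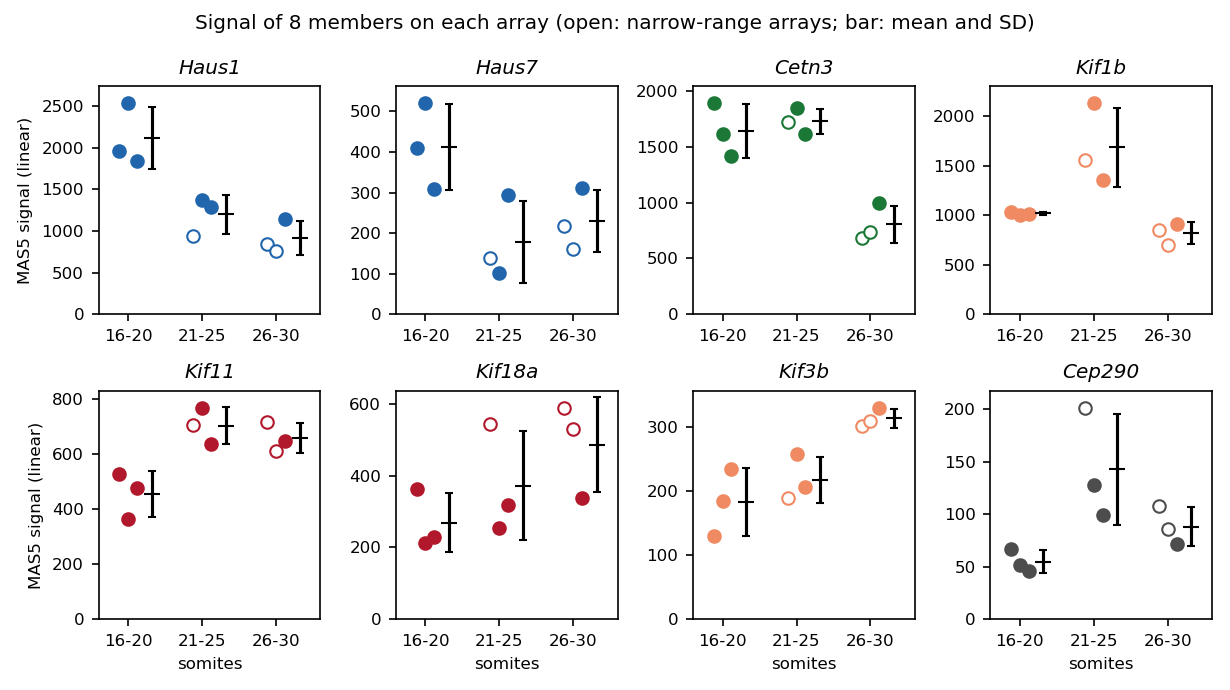
Deposited signal (vertical axis, linear MAS5 intensity from 0) of 8 members by somite stage (horizontal axis), with 1 circle per array, open for narrow-range arrays, and the mean and SD of the 3 arrays beside them. Haus1 is highest on the 16-20 somite arrays, Cetn3 is lowest on those of 26-30 somites, and Kif1b is highest on those of 21-25 somites.

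The centrins are small calcium-binding proteins of the centriole. Cetn3 had signals of 1893.5, 1615.2 and 1416.2 at 16-20 somites, 1725.3, 1844.2 and 1618.9 at 21-25 somites and 687.2, 737.3 and 992.8 at 26-30 somites. The last stage lay below the others without overlap, and the earlier stages overlapped. Its difference was 0.08 ± 0.22 at the first step and -1.09 ± 0.22 at the second (unadjusted p = 0.000297, adjusted p = 0.975 in limma), the latter with a 95% interval of -1.57 to -0.62. The steps differed by -1.18 ± 0.38 (unadjusted p = 0.00903, adjusted p = 0.751 in limma). At 26-30 somites the array that is not of narrow range gave 992.8, the highest of the 3. Without the narrow-range arrays it stands alone for that stage, and the second step was -0.78 and the whole difference -0.70.

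Cetn2, which serves in nucleotide excision repair besides the centriole, ranged from 937.2 to 2292.3 over the 16-20 somite arrays alone, and its whole difference was 0.22 ± 0.32, against -0.18 for its other probe set above the filter. For Cetn1, known mainly from testis and photoreceptors, the whole difference was -0.30 ± 0.21, and its 21-25 somite arrays (305.6, 345.9 and 330.1) lay below those of 16-20 somites (382.4, 390.0 and 442.6). The other probe set of Cetn1 was below the filter, with a mean log2 of 5.06, and gave -0.21 over the whole interval. Neither Cetn1 nor Cetn2 had an unadjusted p under 0.05 in limma in any comparison.

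Of the 9 spindle kinesins tested, 7 had a positive first-step difference, and the median was 0.51. In limma 4 of them had an unadjusted p under 0.05 at that step, and the smallest adjusted p was 0.368. That is 44.4% of these genes, against 11.1% of all genes. Kif11 slides antiparallel microtubules apart and so keeps the spindle poles separate. Its signal was 525.8, 361.5 and 475.4 at 16-20 somites, 704.6, 766.7 and 635.1 at 21-25 somites and 714.8, 608.3 and 645.1 at 26-30 somites. The 16-20 somite arrays lay below the other 6, and the later stages overlapped. The first-step difference was 0.61 ± 0.21 (unadjusted p = 0.0142, adjusted p = 0.369 in limma), the second -0.09 ± 0.21 and the whole 0.52 ± 0.21 (unadjusted p = 0.0319, adjusted p = 0.401). Without 16-20 somites replicate 2 the first step was 0.47 (unadjusted p = 0.065) and the whole 0.37 (unadjusted p = 0.129). For the first step and the whole interval, the second probe set of Kif11 gave 0.68 and 1.06, and the third, below the filter, gave -0.38 and -0.18. Averaged over all 3 they were 0.30 (unadjusted p = 0.265) and 0.47 (unadjusted p = 0.0963) in limma.

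Kif22, a chromokinesin that pushes chromosome arms outward, gave 2639.1, 2717.2 and 2549.2, then 5403.7, 3412.1 and 4397.9, then 4125.7, 2495.4 and 3209.1. The first 2 stages did not overlap, and the last overlapped both. The first step was 0.71 ± 0.24 (unadjusted p = 0.0126, adjusted p = 0.368 in limma). Its other probe sets gave -0.37 and -0.61, so the direction depended on the probe set, and averaging all of them gave -0.09. The first-step value of Kif22 is therefore that of 1 probe set.

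Kif2a, Kif4 and Cep68 were singled out after their values were seen. Kif2a, which takes tubulin off microtubule ends, gave 1464.1, 1233.1 and 1438.0, then 2261.2, 1789.4 and 1893.9, then 1870.8, 1851.5 and 1805.5, with the first stage below the others without overlap. Its first step was 0.51 ± 0.20 (unadjusted p = 0.0234 in limma), and 0.42 (unadjusted p = 0.0741) without 21-25 somites replicate 1. Its other probe sets above the filter gave 0.11 and 0.28, and averaging all its probe sets gave 0.32 (unadjusted p = 0.197). Kif4, a chromokinesin that also shortens microtubules of the central spindle, had 0.58 ± 0.27 (unadjusted p = 0.0485 in limma), with arrays that overlapped and 0.42 (unadjusted p = 0.158) without the same array.

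Kif23, the motor subunit of centralspindlin at the cleavage furrow, had 0.58 ± 0.28 at the first step (unadjusted p = 0.0625 in limma), with 568.4, 558.2 and 654.2 at 16-20 somites against 1451.7, 593.7 and 838.8. A single array, 21-25 somites replicate 1, was far above the others. Kif18a damps the swings of chromosomes at the metaphase plate. Its signals were 363.0, 213.4 and 228.5, then 544.3, 255.1 and 318.1, then 589.5, 531.5 and 338.0, and first and last stage overlapped. The whole difference was 0.80 ± 0.32 (unadjusted p = 0.0261, adjusted p = 0.391 in limma). It was 0.34 without the narrow-range arrays, with only replicate 3 left at 26-30 somites.

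Kif2c, the depolymerase of centromeres, had a whole difference of 0.04 ± 0.21, with signals from 3256.7 to 4333.0, and its other probe sets above the filter gave -0.25, -0.08 and -0.48. Kif20a, which acts in cytokinesis, spread from 153.5 to 954.5 within the 21-25 somite stage, so that its first-step SE of 0.47 was the largest of any member. Kifc1, a motor that walks towards the minus end and focuses spindle poles, had -0.20 ± 0.30 over the whole interval. The spindle kinesin median stood at 0.59 on 21-25 somites replicate 1, -0.14 on replicate 2 and 0.15 on replicate 3, against -0.34 to -0.22 on the 16-20 somite arrays. Without 21-25 somites replicate 1 the first-step median was 0.24, and 2 rather than 4 of the 9 genes had an unadjusted p under 0.05 in limma, against 8.31% of all genes in that fit.

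**Figure D3:**
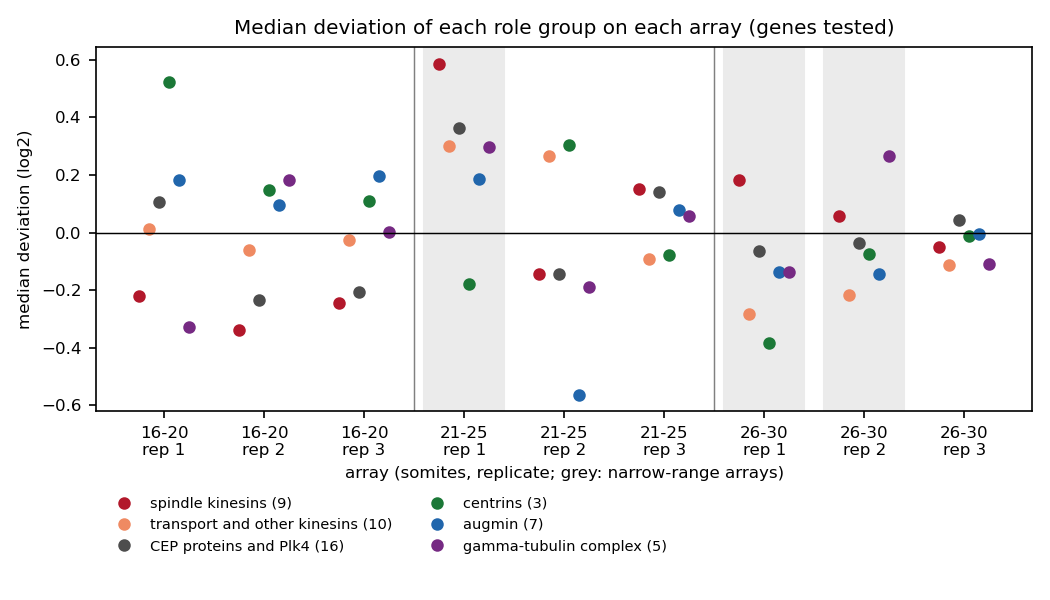
Median deviation of each role group (vertical axis, log2 units from each gene's mean over the 9 arrays) on each array (horizontal axis, by stage and replicate), over genes tested, with grey bands on the narrow-range arrays. The spindle kinesins reach 0.59 on 21-25 somites replicate 1 and lie below 0 on all 16-20 somite arrays; augmin is lowest on 21-25 somites replicate 2.

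Of 18 transport and other kinesins 10 were tested, with medians of 0.07, -0.24 and -0.19 for the first step, the second and the whole interval. Kif1b, which carries mitochondria and the precursors of synaptic vesicles, had 1038.4, 1006.2 and 1018.5 at 16-20 somites, 1561.2, 2137.2 and 1361.4 at 21-25 somites and 849.0, 701.3 and 915.7 at 26-30 somites. The 3 stages did not overlap, with the middle one highest and the last lowest. The first step was 0.68 ± 0.22 (unadjusted p = 0.00984, adjusted p = 0.354 in limma) and the second -0.997 ± 0.22 (unadjusted p = 0.000765, adjusted p = 0.975). The steps differed by -1.68 ± 0.39 (unadjusted p = 0.000941, adjusted p = 0.751 in limma), with values from -1.96 to -1.32 when arrays were left out one at a time. Its other 4 probe sets above the filter gave 0.78, 0.30, 0.10 and 0.06 for the first step and -0.61, -0.40, -0.18 and -0.35 for the second, the same signs at smaller size except 0.78. Averaged over all probe sets the steps were 0.40 (unadjusted p = 0.0517) and -0.38 (unadjusted p = 0.058) in limma. The neuron markers, 8 of 14 above the filter, summed to 1324.8 to 1620.4, 1486.9 to 2378.8 and 1660.5 to 2264.7 at the 3 stages. Below the filter were Tubb3, Snap25, Gap43, Mapt, Elavl3 and Neurod4. At the first step 8 of the 8 tested were higher (median 0.35), and at the second 3 were higher and 5 lower (median -0.065). The part of the neuron markers in the Kif1b signal was not tested.

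Kif1c, a close relative that carries vesicles, had steps of 0.31 ± 0.21 and -0.41 ± 0.21, and its 21-25 somite arrays (766.8, 782.2 and 663.6) lay above those of both other stages. Its second step had an unadjusted p of 0.0732 in limma, and its other probe set above the filter gave -0.17 and 0.05 for the steps. Kif5b, the heavy chain of conventional kinesin found in most cells, gave 332.4, 437.5 and 318.8 at 21-25 somites and 239.7, 272.5 and 291.7 at 26-30 somites, which did not overlap, with -0.40 ± 0.22 (unadjusted p = 0.0955 in limma). Its other probe sets above the filter gave 0.37 and 0.88 for the same step, the opposite direction.

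Kif3a and Kif3b are the paired motor subunits that carry material to the tip of the cilium. Kif3b had 129.8, 185.5 and 235.7, then 189.0, 258.7 and 207.3, then 303.0, 309.4 and 330.9, so that the last stage lay above the others without overlap. Its whole difference was 0.73 ± 0.24 (unadjusted p = 0.0104, adjusted p = 0.349 in limma), while its other probe sets above the filter gave 0.11 and -0.24, and averaging all its probe sets gave 0.21 (unadjusted p = 0.305). For Kif3a the whole difference was -0.26 ± 0.27, with stages that overlapped. The probe sets of these partners thus gave no common direction.

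**Figure D4:**
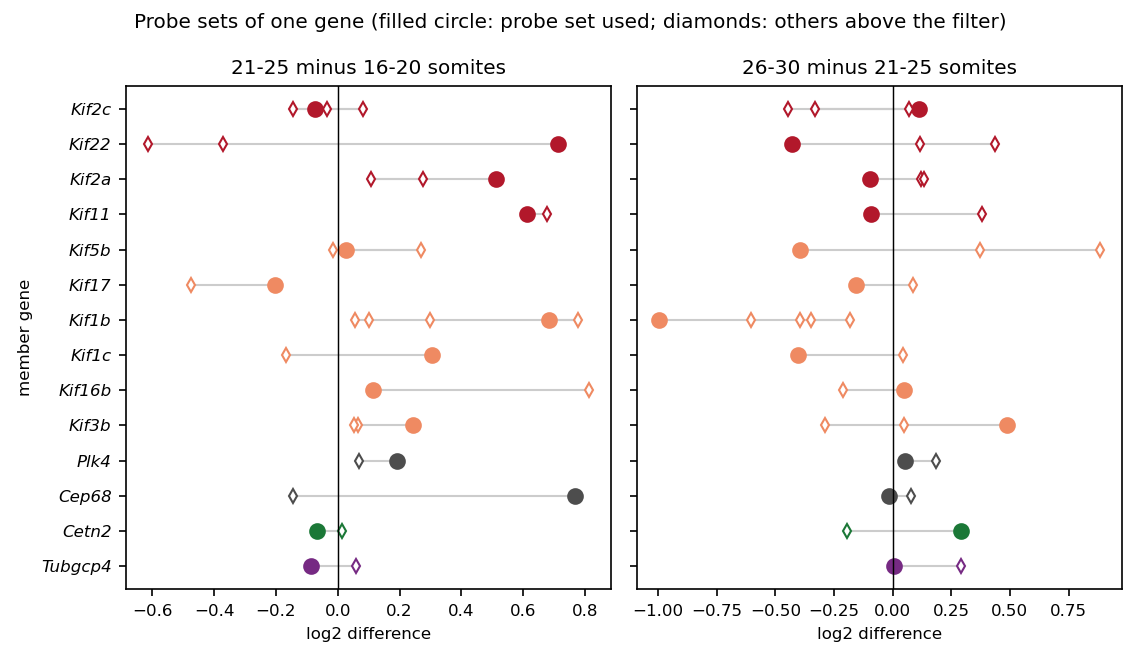
Log2 difference (horizontal axis) of every probe set above the filter at the first step (left) and the second step (right), for the 14 members with more than 1 such probe set (rows, coloured by role); filled circles are the probe sets used and diamonds the others. The probe sets of a member lie on both sides of 0 in 7 members at the first step and in 11 at the second, while the 5 of Kif1b lie on 1 side of 0 in each panel.

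Among the CEP proteins and Plk4, 16 of 19 were tested, with a median of 0.21 at the first step, 12 positive and 4 negative. Cep290, a gatekeeper of the transition zone at the base of the cilium, gave 66.6, 52.0 and 45.9, then 201.4, 127.5 and 99.0, then 107.7, 85.6 and 71.1. The first stage lay below the other 6 arrays, and the later stages overlapped. The first step was 1.02 ± 0.28 (unadjusted p = 0.00299, adjusted p = 0.317 in limma) and the second -0.53 ± 0.28 (unadjusted p = 0.0794). Its mean of 6.84 on the log2 scale was just above the filter of 6.66. It passed only through its 21-25 somite arrays, so its higher signal at that stage cannot be read apart from the filter. Without 21-25 somites replicate 1 the first step was 0.78 (unadjusted p = 0.0196).

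Cep350, a large centriolar protein that anchors microtubules, had 994.7, 789.9 and 968.0, then 2156.9, 1161.7 and 1510.6, then 1095.8, 1087.6 and 1317.6. Here too the first stage lay below the other 6 arrays. The first step was 0.76 ± 0.25 (unadjusted p = 0.00997, adjusted p = 0.354 in limma), and without the narrow-range arrays 0.53 (unadjusted p = 0.0827). Averaged with its other probe set, which is below the filter, it was 0.52 (unadjusted p = 0.0648). Cep68, which helps to hold the centrosomes together until mitosis, had 0.77 ± 0.35 (unadjusted p = 0.0466 in limma), and 0.36 (unadjusted p = 0.237) without 21-25 somites replicate 1, where its signal was 1173.6 against 459.3 and 518.3 on the other arrays of the stage. Its other probe set above the filter gave -0.15 at the first step and -0.07 over the whole interval, and averaging all its probe sets gave 0.29 at the first step (unadjusted p = 0.213 in limma).

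Cep20, which acts in the assembly of cilia, had a lower signal at the second stage. It gave 1855.0, 2343.1 and 2368.0, then 961.7, 1367.7 and 1779.6, then 1465.4, 2084.3 and 1683.2, with the second stage below the first without overlap and the last overlapping both. The first step was -0.70 ± 0.26 (unadjusted p = 0.018, adjusted p = 0.378 in limma), and -0.47 (unadjusted p = 0.078) without 21-25 somites replicate 1. Cep295nl was the dimmest member tested, with a mean of 6.66, at the filter itself. It gave 105.7, 181.6 and 94.3, then 91.9, 46.7 and 43.8, then 63.9, 37.9 and 72.6. It passed only through its 16-20 somite arrays, so its lower later signal cannot be read apart from the filter. Its difference was -0.82 ± 0.31 at the first step and -0.84 ± 0.31 over the whole interval (unadjusted p = 0.0192 in limma). Without 16-20 somites replicate 2 the latter was -0.60 (unadjusted p = 0.0874 in limma). Cep85 had -0.52 ± 0.22 at the second step (unadjusted p = 0.0328 in limma), from 299.0, 426.2 and 343.0 to 219.3, 237.4 and 256.5, and -0.40 (unadjusted p = 0.109) without 21-25 somites replicate 2.

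Plk4, the kinase that starts the duplication of centrioles, ranged from 2247.4 to 4939.1 within the 16-20 somite stage, and this range contained the other 6 arrays. Its whole difference was 0.25 ± 0.27, with a 95% interval of -0.34 to 0.84. Its second probe set above the filter gave 0.26.

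In the gamma-tubulin complex, 5 of 6 members were tested and 0 had an unadjusted p under 0.05 in limma at either step or over the whole interval. Tubg1, gamma-tubulin itself, had -0.29 ± 0.36 over the whole interval. Tubgcp2 and Tubgcp3, which bind gamma-tubulin in the small complex, had 0.10 ± 0.29 and 0.44 ± 0.26, and Tubgcp4, a subunit of the ring, -0.08 ± 0.21, with 0.35 for its other probe set. Tubgcp5, another ring subunit, had steps of 0.54 ± 0.25 and -0.49 ± 0.25 that differed by -1.02 ± 0.43 (unadjusted p = 0.0354, adjusted p = 0.76 in limma). Its signals were 646.5, 450.2 and 484.5, then 762.3, 941.4 and 626.2, then 414.6, 613.9 and 616.6, and without 21-25 somites replicate 2 the steps differed by -0.73 (unadjusted p = 0.137). Tubg2 was left out by the filter.

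The steps differed at an unadjusted p under 0.05 in limma in 8 of 50 members (16.0%), against 6.32% of all genes, and the smallest adjusted p was 0.751. In 6 of the 8 the second step was the more negative, as in 3.14% of all genes, and in 2 the more positive, as in 3.18%. These 6 were Kif1b, Cep290, Cetn3, Cep350, Kif22 and Tubgcp5, and the others were Haus7 and Cep20. Cep290 passed the filter only through its 21-25 somite arrays, so the difference between its steps cannot be read apart from the filter. Both steps use the 21-25 somite arrays. Without 21-25 somites replicate 1, only Kif1b and Cetn3 of these 8 kept an unadjusted p under 0.05 in limma. In that fit the unadjusted p in limma was 0.0617 for Cep290, 0.118 for Cep350, 0.0893 for Kif22 and 0.0627 for Tubgcp5. It was 0.0683 for Haus7 and 0.186 for Cep20. No count is given for the fit without the narrow-range arrays, which keeps only replicate 3 at 26-30 somites.

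**Figure D5:**
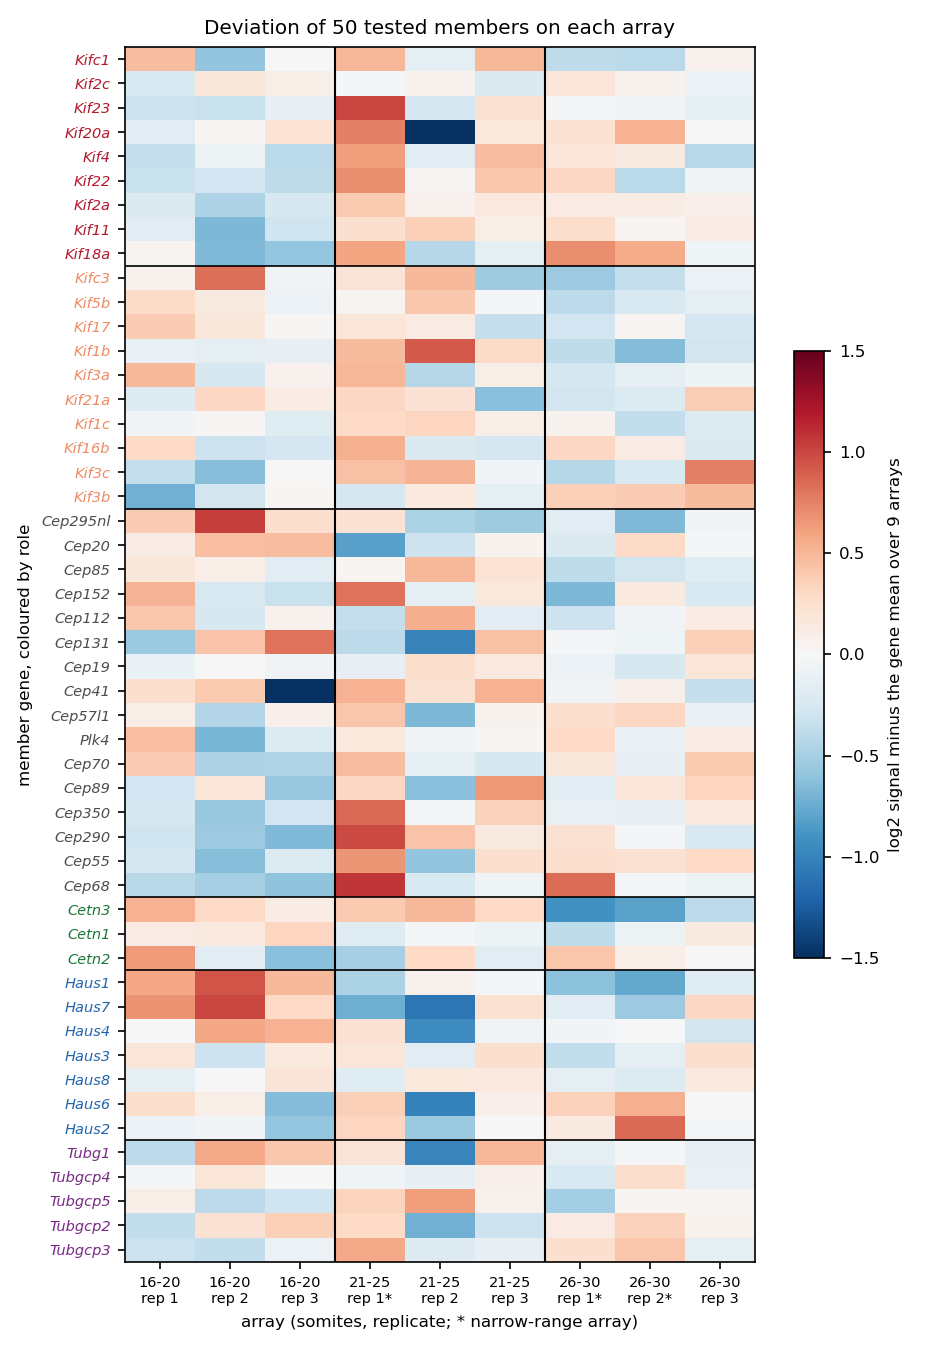
Deviation of each member tested (rows, grouped and coloured by role) from its own mean over the 9 arrays on each array (columns, by stage and replicate), in log2 units by colour, larger deviations taking the end colours of the scale. Haus1 and Haus7 are above their means on all 16-20 somite arrays, and 21-25 somites replicate 1 has the highest member median, 0.31.

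The filter left out 14 members, whose signals lay between 1.9 and 144.4 on every array. They were Haus5, Tubg2, Cep164, Cep250, Cep95 and 9 kinesins, among which were Kif1a, Kif5a, Kif5c and Kif21b, motors best known from neurons. Just outside the filter were Kif5a, with a mean of 6.65, and Kif12, with 6.48. Tubgcp6, Cetn4 and Kif7 were paired with no probe set of their own in the platform's table and were not analysed here.

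Other genes of the same machinery were read from lists. Of 23 other centrosome and centriole genes tested, 4 had an unadjusted p under 0.05 in limma at the first step (17.4%), 1 at the second (4.3%) and 3 over the whole interval (13%), against 11.1%, 4.07% and 11.1% of all genes. Odf2, a protein of the appendages of the older centriole, had a whole difference of 0.70 ± 0.27 (unadjusted p = 0.0224), and Stil, which acts with Plk4 in centriole duplication, 0.75 ± 0.29 (unadjusted p = 0.0228). Of 25 mitosis genes 4, 2 and 3 did so in the 3 comparisons (16%, 8.0% and 12%, against the same shares of all genes), and their medians were 0.09, -0.05 and -0.06. Birc5, the survivin subunit of the chromosomal passenger complex, had 1618.3, 1684.9 and 1719.5, then 691.9, 741.6 and 1055.3, then 509.5, 757.3 and 977.8, with the first stage above the others without overlap. Its whole difference was -1.18 ± 0.26 (unadjusted p = 0.00068, adjusted p = 0.281 in limma), opposite in sign to the 0.52 ± 0.21 of Kif11, and Spc25, a kinetochore protein, had -0.72 ± 0.27 (unadjusted p = 0.02).

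Of 21 kinesin partners and other motors, 2, 1 and 4 had an unadjusted p under 0.05 in limma (9.5%, 4.8% and 19%, against 11.1%, 4.07% and 11.1% of all genes). The dynactin subunits Dctn6 (0.81 ± 0.28, unadjusted p = 0.0121) and Dctn3 (-0.71 ± 0.30, unadjusted p = 0.0327) had opposite signs over the whole interval. Of 14 intraflagellar transport genes 1, 0 and 1 did (7.1%, 0.0% and 7.1%), the latter being Ttc30b (0.87 ± 0.23, unadjusted p = 0.00273), whose signals were 52.5, 69.0 and 55.7 at the first stage and 141.0, 130.9 and 115.5 at the last, and Ift122 had -0.48 ± 0.28. Of 9 tubulins 0 did in any comparison; Tuba4a had -0.58 ± 0.30 and Tuba1a -0.38 ± 0.27. In none of these lists did a gene pass 0.05 after adjustment, the smallest adjusted p over the whole interval being 0.281 in limma.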

How the data were processed

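RNA of 9 pools of mid-foreguts, 3 per stage, was measured on Affymetrix arrays. The deposited values are intensities on a linear scale that the authors made with MAS5, as the submitters' processing notes record. No version of it and no target for scaling could be read from the notes. The medians of the arrays spanned 0.30 on the log2 scale, below the 0.5 above which a further normalization would have been applied, and 0 pairs of arrays held identical values. Of 22690 probe sets 64 were controls; of the rest 20380 had 1 gene symbol in the platform's annotation, 691 several and 1555 none, and only the first were used.

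The pseudocount of 26.2 was the 20th percentile of all values, and genes with a mean log2 under the 30th percentile (6.66) were left out. Stage means of all 9 arrays were fitted with limma 3.58.1 in R 4.3.3 (lmFit, eBayes with a trend); each test was two-sided, with Benjamini-Hochberg adjustment over the 8675 genes. The fit was tested on simulated data. The number of arrays limits the precision. Samples were grouped by the labels' somite stage. The members and lists were chosen with earlier results of these data known. Members were named if among those with the smallest p over the whole interval (up to 10 per direction with unadjusted p under 0.05) or among the 4 with the smallest p per direction of a step, or by role whatever their values. Of each list, the 2 with the smallest p were named. Outside this rule were Kif2a, Kif4 and Cep68, picked after their values were seen, Kifc1, and members named only for the filter or their promoter. Replicate numbers did not pair the arrays (correlations of deviations of same-numbered arrays ran from -0.284 to 0.257), so no block was used. Alternatives were quantile normalization, median centring, pseudocounts of 6.55 and 104.8, no filter or one at the 50th percentile, no trend, array weights, the replicate block, the mean of all probe sets, only the arrays compared, and leaving out each array or the narrow-range arrays. Gene coordinates were not printed because no build is named for the arrays; promoters are RefSeq's.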

Additional observations from a re-analysis of the deposited data

How the results depend on the processing

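No gene passed an adjusted p of 0.05 in limma as reported (0 in each comparison), so single-gene statements rest on unadjusted p-values. Over the whole interval and at the first step, Haus1 kept its direction and an unadjusted p under 0.05 in limma under all 21 alternatives. Cetn3 did so at the second step, and Kif1b for the difference between steps under all 20. Some alternatives could not move a value. Haus1 and Cetn3 have 1 probe set each, so averaging probe sets left their differences as they were. Leaving out an array of the stage not compared kept Haus1 at -0.809 at the first step and Cetn3 at -1.093 at the second. For the first step, 7 members had an unadjusted p under 0.05 when probe sets were averaged (13.5%, against 9.75% of all genes) and 7 without the narrow-range arrays (14%, against 5.90%), where 1 gene of all passed adjustment; leaving out single arrays, 0 to 3 genes did (3 without 21-25 somites replicate 3). For the second step, array weights gave 13 members (26%, against 17.7% of all genes) and 29 genes past adjustment, and the fit to only the arrays compared gave 5 members (against 3.72%); leaving out single arrays gave 2 to 8 members, with 6, 8 and 5 without 21-25 somites replicates 1, 2 and 3 (against 9.01%, 4.67% and 5.37% of all genes). Over the whole interval, array weights gave 19 members (38%, against 27.8%) and 731 genes past adjustment. The fit to only the arrays compared gave 11 members (22%, against 17.1%) and 4 genes. Leaving out single arrays gave 3 to 10 members and 0 to 1 genes past adjustment. There were 3 members without 16-20 somites replicate 2, against 6.92% of all genes, and 4 without 26-30 somites replicate 1, against 5.75%. For the difference between steps, array weights gave 14 members (28%, against 11.4%). Leaving out single arrays, the median ran from -0.426 (without 21-25 somites replicate 2) to 0.018 (without 21-25 somites replicate 1) and 0 to 3 genes passed adjustment. The fit without the narrow-range arrays gave a median of 0.032. No count is given for that fit here or over the whole interval, as only replicate 3 is left at 26-30 somites. With the mean of all probe sets Kif22 was reversed, to -0.092 at the first step and 0.132 for the difference between steps. The causes were not tested.

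With the replicate number as a block, 11, 3 and 9 members had an unadjusted p under 0.05 at the first step, the second and over the whole interval, 7 for the difference between steps (against 11.1%, 3.65%, 11.4% and 6.04% of all genes), and 0 genes passed adjustment. The labels' numbers did not pair the arrays.

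Of 14 members with more than 1 probe set above the filter, probe sets had both signs in 7 at the first step, 11 at the second and 8 over the whole interval. Cep290 and Cep295nl had means close to the filter, with the dimmest signals of the members described in full.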
